A study of Mus musculus with 12 samples.

Results

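Gadd45a, Gadd45b, Gadd45g, Btg1, Btg2, Cdkn1a (p21), Cdkn1b (p27), Trp53inp1 and Mdm2 belong to the growth arrest and stress response of mammalian cells, and their RNA was followed here in mouse neutrophils and macrophages exposed to the neuropeptide CGRP. The 9 genes were selected by symbol from the 52636 genes listed in both count tables, with the CGRP results of these libraries already known, so that their CGRP values are given as a description, without a test. All 9 had enough counts to be tested in each cell type. The pathway lists used beside them were also chosen with earlier results of these data known.

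The study isolated neutrophils and monocytes with magnetic enrichment kits from bone marrow of C57BL/6 J mice aged 8 to 12 weeks. Monocytes were kept for 3 days in medium with M-CSF at 10 ng/ml, the growth factor under which they become macrophages (the labels call these cells monocyte/macrophage). The 4 groups were neutrophils with PBS (saline), neutrophils with 1 nM CGRP, macrophages with PBS and macrophages with 1 nM CGRP, each exposed for 4 h and each with 3 libraries, 12 in all. The labels name no genetic change for any group, and nothing in the sources used here says whether the libraries of a group came from separate mice, so that p-values measure only the spread between these libraries, which may be technical. The cell types differed in isolation kit, in medium and in the days with M-CSF, and these cannot be told apart from cell type. The libraries held between 2002559 and 3631989 counts each. At these totals 3 counts, taken as the lowest detectable level, correspond to at least 0.826 CPM and at most 1.50 CPM (counts scaled to library size), a floor that covers counting error only. Levels below are CPM scaled by TMM (trimmed mean of M values, which adjusts library sizes) over the 12 libraries, as mean ± SD with n = 3.

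Summed markers of each labelled cell type were higher in its own libraries than in those of the other cell type. The 11 neutrophil markers summed to between 157464 and 236199 CPM in the neutrophil libraries and to between 302 and 446 CPM in the macrophage libraries, with the calgranulin gene S100a8 highest in both. The 12 monocyte and macrophage markers summed to between 11363 and 13765 CPM in macrophages, led by the complement gene C1qb, and to between 2777 and 4113 CPM in neutrophil libraries, led by Ly6c2. Ly6c2 went the other way, at 33.9, 33.0 and 27.0 CPM in PBS-treated macrophages and 2720, 3089 and 2310 CPM in PBS-treated neutrophils. Ccr2 was not higher in macrophages either, at 288, 290 and 274 CPM with PBS against 328, 307 and 316 CPM in neutrophils. The remaining markers of this list were higher in macrophages. The neutrophil libraries also held granulocyte precursor RNA, with Elane, Mpo, Prtn3 and Ctsg summing to between 3091 and 3931 CPM against between 4.06 and 9.56 CPM in macrophages. Their 6 erythroid markers, led by Hbb-bs, summed to between 5773 and 7381 CPM. With CGRP, 1 of the 12 monocyte and macrophage markers, Ccr2, was lower in each cell type, and none of the tested markers of the other 8 cell types examined was called. Fewer cells of a type and less RNA per cell cannot be told apart in such bulk libraries.

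These genes act at several points of cell cycle arrest. p21 and p27 bind and inhibit cyclin-dependent kinases and so hold cells before DNA replication. BTG1 and BTG2 are antiproliferative adaptors that recruit the CCR4-NOT deadenylase to messenger RNA, and the GADD45 proteins are small stress sensors that activate the p38 and JNK kinase pathways through MAP3K4. Cdkn1a, Btg2, Gadd45a, Trp53inp1 and Mdm2 are classical targets of the transcription factor p53, and MDM2 in turn marks p53 for degradation. CGRP acts through a receptor that raises cyclic AMP, and the factor CREB, which responds to cyclic AMP, binds the CRE sequence.

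In macrophages CGRP went with higher Btg1, Btg2, Cdkn1a and Cdkn1b and lower Gadd45g, while in neutrophils Gadd45g and Btg1 were higher. Btg1 and Btg2 were 2.75-fold and 2.53-fold higher in CGRP-treated macrophages, Cdkn1b 2.21-fold and Cdkn1a 1.93-fold. Gadd45g stood on opposite sides in the cell types, 1.83-fold higher in neutrophils and at 0.537 times its PBS level in macrophages. Macrophages had 4 of the 9 genes among the 3.46% of tested genes called higher and 1 among the 3.97% called lower (adjusted p under 0.05 in limma-voom, 7.43% called in all). Neutrophils had 2 of the 9 among the 1.51% called higher and none among the 1.02% called lower (2.53% in all). Because the genes were chosen with these values known, nothing is read from the shares.

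**Figure D1:**
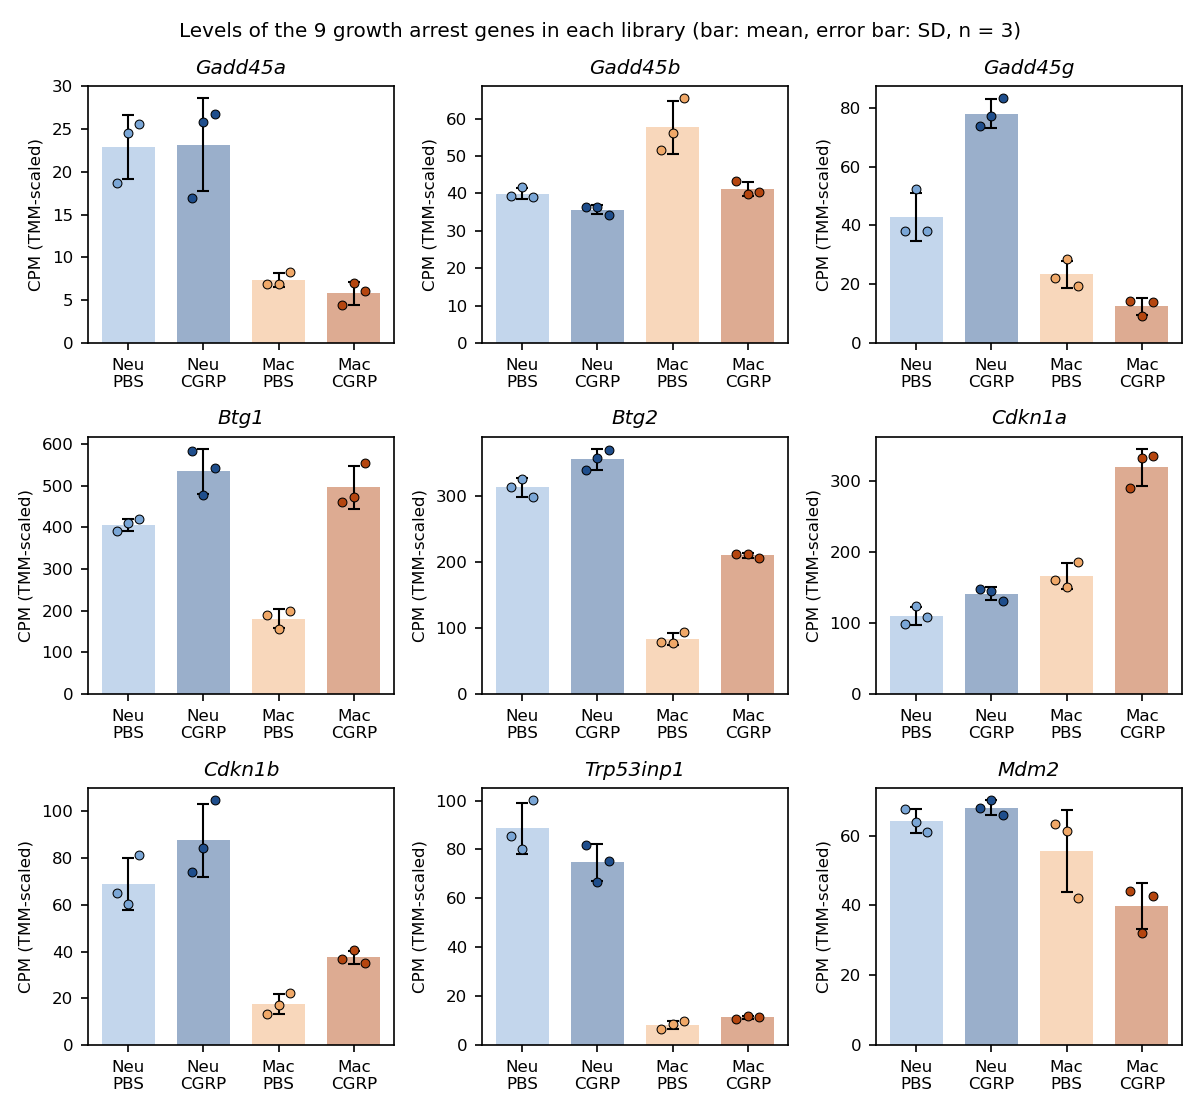
TMM-scaled CPM (y axis) of each of the 9 genes in the 4 groups (x axis; Neu, neutrophils; Mac, macrophages), with 1 point per library, bars for the mean and error bars for the SD (n = 3). Btg1, Btg2, Cdkn1a and Cdkn1b were higher in every CGRP-treated macrophage library than in any PBS-treated macrophage library. Gadd45g moved in opposite directions in the cell types.

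Btg1 (ENSMUSG00000036478) spans 96617006 to 96622809 of chromosome 10 (plus strand, GRCm38), and Btg2 (ENSMUSG00000020423) is on the minus strand of chromosome 1, from 134075170 to 134079120. Both have 2 exons. The 250 bases before their RefSeq start sites (GRCm38.p6) are shown because both genes were higher in macrophages and both windows hold letters of the CRE. Capitals mark the CRE, TGACGTCA, in Btg2 and its half-site, TGACG, which lies on the opposite strand in Btg1 and reads there as CGTCA. The Btg1 window is chr10:96616751-96617000 on the plus strand and the Btg2 window is chr1:134079156-134079405 on the minus strand, both printed 5′ to 3′.
Btg1: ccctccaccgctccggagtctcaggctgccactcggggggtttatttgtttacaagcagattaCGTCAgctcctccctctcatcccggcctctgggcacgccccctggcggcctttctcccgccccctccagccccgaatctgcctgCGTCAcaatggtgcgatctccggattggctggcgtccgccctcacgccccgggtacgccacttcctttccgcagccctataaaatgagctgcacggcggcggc
Btg2: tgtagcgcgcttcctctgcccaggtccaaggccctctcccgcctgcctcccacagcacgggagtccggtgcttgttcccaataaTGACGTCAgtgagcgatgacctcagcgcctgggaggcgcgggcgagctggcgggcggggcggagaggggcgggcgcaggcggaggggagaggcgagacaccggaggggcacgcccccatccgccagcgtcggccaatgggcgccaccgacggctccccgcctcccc

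The Btg2 match begins at position −166 from the start site, and those of Btg1 at positions −187 and −103. Over the 300 bases from 250 before to 50 after the start, 1.79% of 32851 promoters hold the CRE and 20.8% the half-site on either strand, of which the CRE is a part. Btg2 was 1 of the 8 members with a listed promoter that held the CRE, and Btg1, Btg2, Cdkn1b (position 22) and Mdm2 (position 29) held the half-site. No AP-1 letters (TGANTCA, in 7.81% of promoters) were found in these windows, and FOXO letters (GTAAACA, in 3.65%) were found in Btg1 at −204 and Mdm2 at −153. A p53 half-site, found in 8.36% of promoters, lay at −40 in Gadd45a and at −186 in Mdm2. The windows of Gadd45b and Gadd45g held none of the letters searched. No promoter was listed for Trp53inp1. A match describes the letters only and is not evidence of a bound site.

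Btg1 in macrophages was at 190, 155 and 198 CPM with PBS and at 461, 473 and 554 CPM with CGRP. The groups were far apart, with the lowest CGRP library above the highest PBS library, and the log2 fold change was 1.46 (SE 0.14). In neutrophils it was at 391, 410 and 419 CPM with PBS and at 584, 478 and 542 CPM with CGRP, again without overlap, with a log2 fold change of 0.40 (SE 0.08). The macrophages thus began at 181 ± 23.1 CPM and reached 496 ± 51.0 CPM, a range that overlapped that of the CGRP-treated neutrophils (535 ± 53.1 CPM). The neutrophil call of Btg1 did not hold without neutrophil PBS replicate 1 or without neutrophil PBS replicate 2.

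Btg2 in macrophages was at 78.9, 77.6 and 94.2 CPM with PBS and at 212, 213 and 205 CPM with CGRP. The CGRP libraries lay close together and well above the PBS libraries, a log2 fold change of 1.34 (SE 0.14). In neutrophils Btg2 was at 314, 326 and 299 CPM with PBS and at 339, 358 and 369 CPM with CGRP. These groups did not overlap either, but the log2 fold change was 0.20 (SE 0.08) and the gene was not called. Every neutrophil library stayed above every macrophage library for Btg2, also after CGRP.

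Cdkn1a (ENSMUSG00000023067) spans 29090976 to 29100727 of chromosome 17 (plus strand) and encodes the p53-induced inhibitor p21. Its first RefSeq promoter is shown because it was the only member window that held the letters of a p53 response element, a pair of p53 half-sites, found in 0.0731% of all promoters. Cdkn1a has a second listed promoter, whose window begins at 29093519 and held none of the letters searched. Capitals mark the pair with the bases between them, which begins at position −73, in chr17:29090729-29090978 on the plus strand. The half-sites begin at −73 and −51, since the search allowed other bases between them. The letters do not show which stretch p53 binds.
Cdkn1a: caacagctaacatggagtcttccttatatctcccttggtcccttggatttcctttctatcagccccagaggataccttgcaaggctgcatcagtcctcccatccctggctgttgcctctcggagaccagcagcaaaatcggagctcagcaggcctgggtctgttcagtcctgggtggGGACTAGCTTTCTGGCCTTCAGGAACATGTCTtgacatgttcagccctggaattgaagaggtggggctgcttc

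In macrophages Cdkn1a was at 162, 152 and 187 CPM with PBS and at 290, 334 and 336 CPM with CGRP. All CGRP libraries were above all PBS libraries, with a log2 fold change of 0.95 (SE 0.13). In neutrophils it was at 99.3, 124 and 108 CPM with PBS and at 148, 145 and 131 CPM with CGRP. These groups did not overlap, but the log2 fold change of 0.38 (SE 0.10) lay just outside the called genes. Cdkn1a was called in neutrophils with the replicate number as a block (0.37) and without neutrophil CGRP replicate 3 (0.42). Among the 9 genes, Cdkn1a was the only one whose level was highest in CGRP-treated macrophages (320 ± 25.6 CPM) and lowest in PBS-treated neutrophils (110 ± 12.5 CPM), and no 2 neighbouring groups in that order overlapped.

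Cdkn1b (ENSMUSG00000003031, chromosome 6, plus strand, 134920401 to 134925513) encodes p27, the inhibitor that accumulates in resting cells. It was at 13.5, 17.1 and 22.3 CPM in PBS-treated macrophages and at 37.0, 40.6 and 35.2 CPM with CGRP. The groups were separate, with a log2 fold change of 1.14 (SE 0.21). In neutrophils it was at 65.1, 60.2 and 81.4 CPM with PBS and at 74.1, 84.2 and 105 CPM with CGRP, where the groups overlapped and the log2 fold change was 0.35 (SE 0.14).

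Gadd45g (ENSMUSG00000021453, chromosome 13, plus strand, 51846678 to 51848468) had 121, 171 and 106 counts in neutrophils with PBS and 227, 263 and 190 with CGRP, which is 38.3, 52.5 and 38.2 CPM against 73.8, 77.1 and 83.3 CPM. All CGRP libraries of the neutrophils were higher, with a log2 fold change of 0.87 (SE 0.13). In macrophages it had 77, 95 and 54 counts with PBS and 46, 25 and 28 with CGRP, or 22.1, 28.5 and 19.4 CPM against 14.4, 9.24 and 14.1 CPM. Here all CGRP libraries were lower, with a log2 fold change of −0.90 (SE 0.25). The macrophage call did not hold without macrophage PBS replicate 1, PBS replicate 2, CGRP replicate 2 or CGRP replicate 3, each left out alone. The order of the groups was CGRP-treated neutrophils, PBS-treated neutrophils, PBS-treated macrophages and CGRP-treated macrophages, with no overlap between neighbours.

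The other two GADD45 genes had smaller differences. Gadd45b (ENSMUSG00000015312, chromosome 10, plus strand, 80930073 to 80932204) was at 51.6, 56.0 and 65.4 CPM in PBS-treated macrophages and at 43.2, 39.9 and 40.3 CPM with CGRP. The groups were separate and the log2 fold change was −0.47 (SE 0.16), without a call. In neutrophils it was at 40.0 ± 1.56 and 35.7 ± 1.27 CPM, also with separate groups (log2 fold change −0.14, SE 0.13). Gadd45a (ENSMUSG00000036390, chromosome 6, minus strand, 67035096 to 67037457) had few counts in macrophages, 24, 23 and 23 with PBS and 14, 19 and 12 with CGRP. Its groups overlapped in both cell types, with log2 fold changes of −0.35 (SE 0.32) in macrophages and 0.00 (SE 0.20) in neutrophils. E230016M11Rik, antisense to Gadd45a, reached 9 counts in its highest library, and the sources used here do not state whether counting used the strand.

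Trp53inp1 (ENSMUSG00000028211, chromosome 4, plus strand, 11156431 to 11174379) encodes a nuclear partner of p53 that also acts in autophagy. It had 271, 261 and 278 counts in PBS-treated neutrophils but 23, 29 and 27 in PBS-treated macrophages. With CGRP the macrophages went from 8.33 ± 1.59 to 11.3 ± 0.614 CPM without overlap (log2 fold change 0.47, SE 0.27), and the neutrophils from 88.7 ± 10.3 to 74.7 ± 7.55 CPM with overlap (log2 fold change −0.23, SE 0.12). Neither was called. Mdm2 (ENSMUSG00000020184, chromosome 10, minus strand, 117688875 to 117710758) had overlapping groups in both cell types, at 55.6 ± 11.8 and 39.7 ± 6.58 CPM in macrophages (log2 fold change −0.48, SE 0.20) and at 64.1 ± 3.40 and 67.9 ± 2.17 CPM in neutrophils (0.10, SE 0.11). Without macrophage PBS replicate 3, Mdm2 was called lower in macrophages (−0.66). The CGRP and PBS libraries did not overlap for 5 of the 9 genes in neutrophils, where 17.8% of all tested genes had separate groups, and for 7 of the 9 in macrophages, where 24.1% had.

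**Figure D2:**
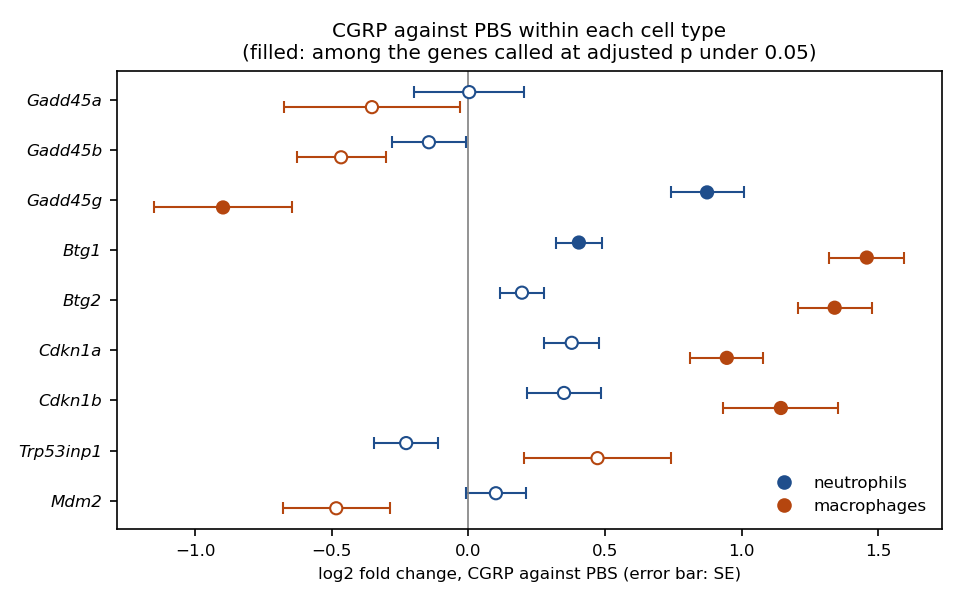
log2 fold change of CGRP against PBS (x axis) for each gene (y axis) in neutrophils (blue) and macrophages (orange), with error bars for the SE and filled points for genes called at an adjusted p under 0.05 in limma-voom. Btg1 and Btg2 sat furthest to the right in macrophages, at 1.46 and 1.34, and Gadd45g at 0.87 in neutrophils and −0.90 in macrophages.

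Set beside each other as the difference of the log2 fold changes, macrophages minus neutrophils, the values were −1.77 (SE 0.29) for Gadd45g, 1.16 (SE 0.15) for Btg2 and 1.06 (SE 0.16) for Btg1. These 3 were among the 2.36% of genes called for this difference (1.21% higher and 1.15% lower). The other 6 were not called, among them Cdkn1b at 0.80 (SE 0.26), Trp53inp1 at 0.71 (SE 0.30), Cdkn1a at 0.58 (SE 0.17) and Mdm2 at −0.58 (SE 0.22). As differences of the CGRP values that were known when the genes were chosen, they are a description only.

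Before CGRP, the cell types already differed in 8 of the 9 genes. Resting macrophages (PBS) had less Trp53inp1, Cdkn1b, Btg2, Gadd45a, Btg1 and Gadd45g than resting neutrophils, and more Cdkn1a and Gadd45b. The genes were not picked by this comparison, but they were chosen with earlier results of these data known. It also shares its PBS libraries with the CGRP comparisons, so its p-values are not independent of that choice. The log2 difference, macrophages minus neutrophils, was −3.41 for Trp53inp1 (SE 0.21, adjusted p = 1.93e-12, limma-voom), −1.99 for Cdkn1b (SE 0.20, adjusted p = 7.00e-09) and −1.91 for Btg2 (SE 0.11, adjusted p = 3.80e-13). Gadd45a (−1.62, adjusted p = 8.70e-06), Btg1 (−1.18, adjusted p = 6.62e-09) and Gadd45g (−0.88, adjusted p = 2.15e-04) followed. Cdkn1a was higher in macrophages by 0.59 (SE 0.12, adjusted p = 1.63e-04) and Gadd45b by 0.51 (SE 0.13, adjusted p = 1.80e-03). Mdm2 differed by −0.21 (SE 0.15, adjusted p = 0.213), within the spread between libraries.

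The background of this comparison is large. Of 10694 genes tested, 67.9% were called (32.5% higher and 35.4% lower in macrophages), and 70.5% had separate groups, as had 8 of the 9 members. The median log2 difference over all genes was −0.03. The proliferation genes were lower in macrophages for 22 of 23 (median −2.17), and Mki67, a marker of cycling cells, had 368, 350 and 257 counts in PBS-treated neutrophils and 54, 34 and 27 in PBS-treated macrophages. The other, Pcna, was higher in macrophages, at 210, 238 and 154 CPM against 91.4, 101 and 82.9 CPM in neutrophils. Apart from Pcna, these values and the precursor markers given above moved with most of the resting differences, and their part in them was not tested. Of the 13 tested genes of the BTG/TOB family and the CCR4-NOT deadenylase, 6 were lower in macrophages, 7 were not called and none was higher. Tob1, another antiproliferative relative of Btg1, was lower by −2.81 (SE 0.31, adjusted p = 3.09e-08), while Tob2 differed by 0.01 (SE 0.22, adjusted p = 0.959). Of the 4 other CDK inhibitors tested, 3 were lower, among them Cdkn2d, the p19 inhibitor of CDK4 and CDK6, by −3.53 (SE 0.15, adjusted p = 1.36e-15), and 1 was called higher. The latter, Cdkn1c, had 1, 2 and 5 counts in neutrophils and 15, 22 and 18 in macrophages, so that it passed the count filter through the macrophage libraries alone and no difference is read from it.

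**Figure D3:**
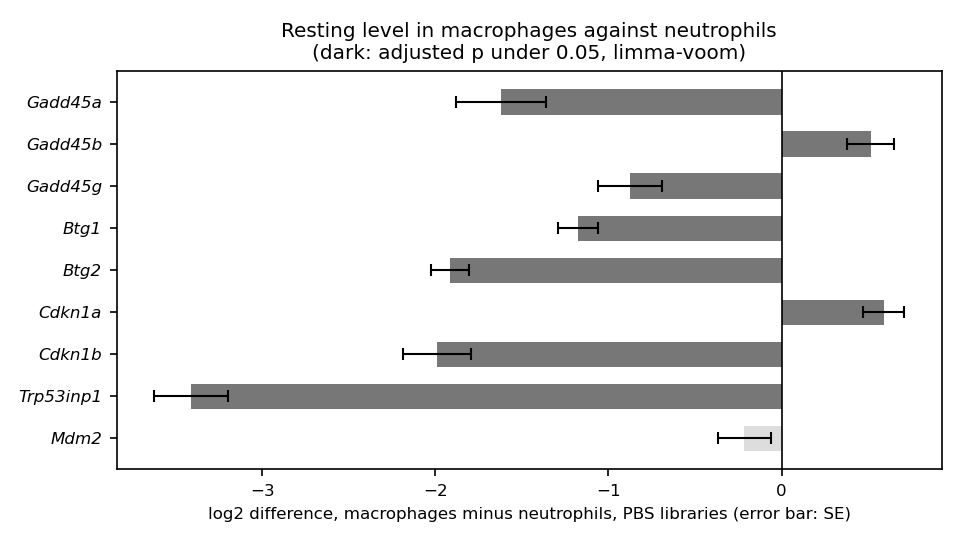
log2 difference in level between PBS-treated macrophages and PBS-treated neutrophils (x axis) for each gene (y axis), with bars for the estimate, error bars for the SE and dark bars for an adjusted p under 0.05 in limma-voom. Trp53inp1 reached −3.41, Cdkn1a and Gadd45b lay to the right of 0, and Mdm2 (light) was not called.

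The genes around these members were compared by 8 lists of 133 genes in all. In neutrophils 113 could be tested, of which 1 rose and 1 fell with CGRP (1.77%, beside 2.53% of all genes). Map2k3, a kinase that activates p38, rose from 168 ± 7.63 to 219 ± 7.15 CPM (log2 fold change 0.40, SE 0.09, adjusted p = 0.0115, limma-voom), and Klf4, a zinc finger factor of quiescent and differentiating cells, fell from 50.1 ± 2.68 to 29.1 ± 5.02 CPM (−0.76, SE 0.15, adjusted p = 4.02e-03). Map2k3 was not called in a single fit over all 12 libraries or without neutrophil PBS replicate 1. In macrophages 108 could be tested, of which 6 rose and 17 fell (21.3%, beside 7.43% of all genes). Because the lists were chosen with earlier results of these data known, their shares and directions are not independent evidence.

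Of the 23 proliferation genes, all tested, 10 fell in CGRP-treated macrophages (43.5%, beside 7.43% of all genes called), 13 did not pass and none rose. Their median log2 fold change was −0.73, where that of all genes was 0.00. Pcna, the clamp of the replication fork, fell from 201 ± 43.0 to 92.6 ± 25.6 CPM (log2 fold change −1.11, SE 0.20, adjusted p = 1.78e-03, limma-voom). Ccna2, the S phase cyclin A2, had 74, 63 and 50 counts with PBS and 29, 17 and 13 with CGRP (−1.37, SE 0.27, adjusted p = 3.91e-03). Mki67 (−1.46, SE 0.42, adjusted p = 0.0457) and Ccnb2, a mitotic cyclin (−1.10, SE 0.30, adjusted p = 0.0336), fell as well. The count of 10 became 2 without macrophage PBS replicate 1, 2 without CGRP replicate 2, 2 without CGRP replicate 3 and 5 without PBS replicate 2, whereas Pcna and Ccna2 passed in all 6 such fits and Mki67 and Ccnb2 in 2. In neutrophils none of the 23 was called and their median was −0.07.

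Of the G1 cyclins, cyclin-dependent kinases and pocket proteins, 4 of 18 tested fell in macrophages and none rose (22.2%, beside 7.43% of all genes, median −0.24). Ccnd1, the cyclin D1 that carries growth factor signals to CDK4 and CDK6, had 300, 226 and 185 counts with PBS and 52, 40 and 36 with CGRP. The groups were far apart (log2 fold change −2.15, SE 0.20, adjusted p = 3.93e-06, limma-voom). Cdk6 fell from 48.3 ± 7.25 to 24.8 ± 2.38 CPM (−0.95, SE 0.19, adjusted p = 4.51e-03). Ccne2, or cyclin E2 (−1.59, adjusted p = 0.0170), and the CDK subunit gene Cks1b (−0.68, adjusted p = 0.0495) fell too, but with a library left out they passed in 3 and 2 of 6 fits, and the count of 4 became 2 without macrophage PBS replicate 1, CGRP replicate 2 or CGRP replicate 3. In neutrophils none of the 18 tested was called. The 4 other CDK inhibitors tested in macrophages, the 13 genes of the BTG/TOB family and the CCR4-NOT deadenylase, and the 8 tested partners of GADD45 in p38 and JNK signalling had no call with CGRP (medians −0.12, 0.05 and 0.20).

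The p53 targets moved in both directions in macrophages. Of 21 tested, 4 rose and 3 fell (33.3%, beside 7.43% of all genes), with a median log2 fold change of 0.15. The 4 include Ddit4, whose fold change is not read, and Pmaip1, called in 2 of 6 fits with a library left out. Plk2, a stress-induced kinase, fell from 116 ± 8.46 to 29.4 ± 4.71 CPM (log2 fold change −1.96, SE 0.17, adjusted p = 1.97e-06, limma-voom). Sesn1, a sestrin that restrains the growth kinase mTORC1, fell from 222 ± 27.2 to 65.8 ± 3.47 CPM (−1.74, SE 0.15, adjusted p = 1.64e-06). Its relative Sesn2 went the other way, from 20, 17 and 31 counts to 69, 66 and 42 (1.72, SE 0.29, adjusted p = 1.06e-03). Ddit4, another inhibitor of mTORC1, had 2, 6 and 1 counts with PBS, around the floor, and 33, 16 and 13 with CGRP. It was called, but it passed the count filter through its CGRP libraries alone, and no fold change is read from it. In neutrophils none of the 23 targets tested was called (median 0.00).

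In the list of p53 and its regulators, 1 of 11 was called in macrophages (9.09%, near the 7.43% of all genes). Trp53 itself was not called. The called gene, Trp53inp2, was listed as the relative of Trp53inp1 and not as an established regulator of p53. It rose from 38.4 ± 2.66 to 95.4 ± 15.8 CPM (log2 fold change 1.29, SE 0.17, adjusted p = 9.19e-05, limma-voom). It had a log2 fold change of 0.36 (SE 0.10) in neutrophils with an adjusted p of 0.0506, where none of 13 was called. Of the FOXO factors and quiescence genes, 1 of 10 rose in macrophages, the thioredoxin inhibitor Txnip (0.53, SE 0.15, adjusted p = 0.0376), called in 6 of 8 alternatives and in 2 of 6 fits with a library left out. That share, 10%, is also near the background.

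**Figure D4:**
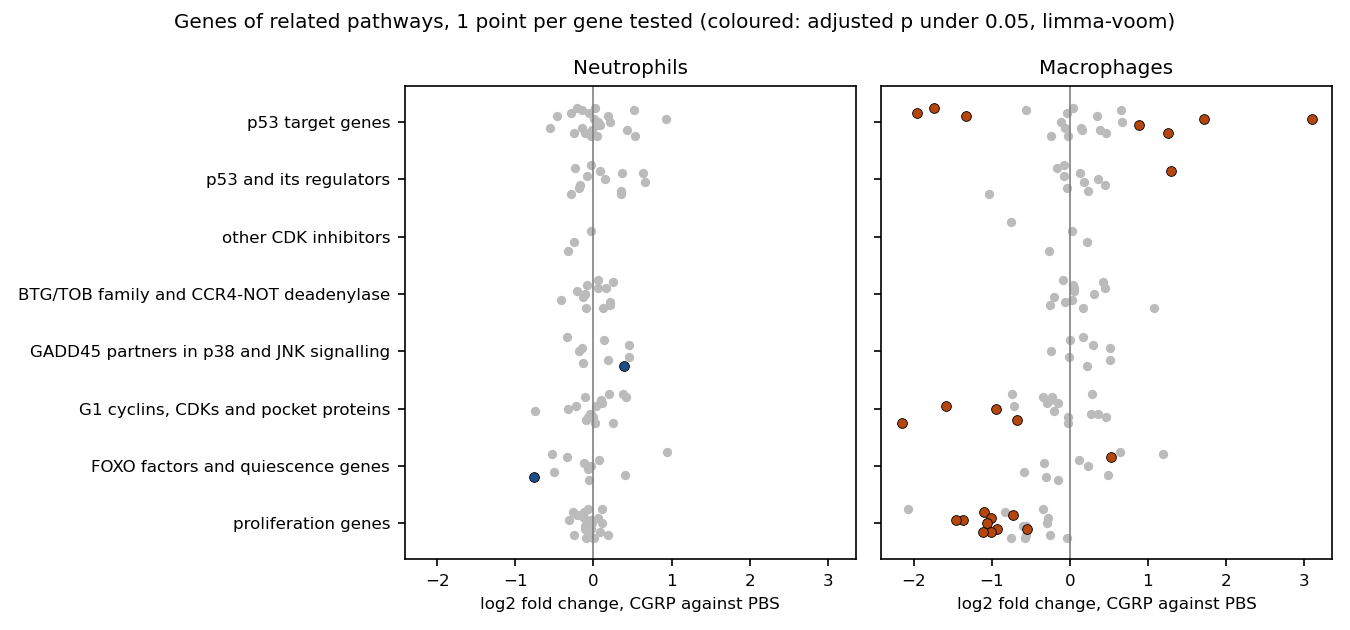
log2 fold change of CGRP against PBS (x axis) for each tested gene of the 8 lists (y axis, vertical offsets only separate the points) in neutrophils and macrophages, with coloured points for an adjusted p under 0.05 in limma-voom. In macrophages the 10 called proliferation genes and the 4 called G1 genes lie to the left of 0 and the p53 targets on both sides, while 2 points are coloured in neutrophils.

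The genes with the most similar pattern over the 12 libraries were found by Pearson's r of log2 CPM, as a description. Btg2 was closest to Emb (r = 0.990) and Tspan13 (0.988), Btg1 to Mxi1 (0.974) and Sertad3 (0.970), Cdkn1b to Stat4 (0.979) and F5 (0.979), and Gadd45g to Mir22hg (0.967) and Ndel1 (0.963). Cdkn1a was closest to Gdi2 (0.983) and Cd14 (0.974). Trp53inp1 was closest to Ankrd13a (0.997) and Abtb1 (0.996), Gadd45a to Kif4 (0.986), Mdm2 to Ints6l (0.971) and Cdkn2aipnl (0.959), and Gadd45b to Mndal (0.943) and Denr (0.939). The 12 points share the difference between the cell types, which was called for all of these genes but Mdm2. Over the 6 macrophage libraries alone, Btg2 was closest to Mxi1 (0.999), which was also the closest gene to Btg1 over all 12, Btg1 to Hdac5 (0.997), Cdkn1a to Mkl1 (0.999), Cdkn1b to Mtr (0.994), Gadd45g to Anapc10 (0.991), Gadd45a to Tspyl3 (0.989), Gadd45b to 1810024B03Rik (0.999), Trp53inp1 to Btbd7 (0.993) and Mdm2 to Cdkn2aipnl (0.998). Over the 6 neutrophil libraries, the closest genes were Taf13 for Gadd45g (0.988), E2f6 for Btg1 (0.996), Ccnt1 for Btg2 (0.997), Gdap10 for Cdkn1a (0.991), Tmed2 for Cdkn1b (0.998), Rad1 for Gadd45a (0.993), Bzw2 for Trp53inp1 (0.990) and Dicer1 for Mdm2 (0.990). No value is read as shared function or control.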

How the data were processed

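RNA from 12 libraries was sequenced after priming at the poly-A tail with unique molecular identifiers. The authors used the nfCore/RNAseq pipeline (alignment by STAR to GRCm38, gene counting by featureCounts) and deposited raw counts in a table for each cell type (2 tables, 52636 genes each). The annotation release, strand setting and any count filter are not given in the sources used here. No 2 libraries held identical values.

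CGRP was compared with PBS within each cell type on its 6 libraries with TMM and limma-voom (two-sided, Benjamini–Hochberg adjustment over all genes tested, threshold 0.05), which the authors' methods name, after a filter on low counts by edgeR's filterByExpr, chosen here. The resting comparison and the difference of CGRP effects came from 1 limma-voom fit over the 12 libraries. The members, the gene lists and the markers were chosen with earlier results of these data known. All 9 members are named, with up to 4 called genes per list and cell type, by absolute log2 fold change, and the most similar genes by Pearson's r of log2(CPM + 0.5), of which 2 are not reported here. From the resting comparison, Tob1, Tob2, Cdkn2d and Cdkn1c, and for their differing effects further list genes in the closing section, were named after their values were seen. Gene positions came from GENCODE on GRCm38, which held 52489 of the identifiers, and promoters from RefSeq for 8 of the 9 members. None of the 31-base sequences in the last 500 bases of a member occurred in another gene.

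Results were recomputed with DESeq2, the quasi-likelihood test of edgeR, limma-voom on DESeq2 size factors, library totals, no filter, at least 10 counts in every library, the replicate number as a block, a single fit over all 12 libraries (for the resting comparison, the 6 PBS libraries alone), and leaving out each library. Counts of called genes per list were added to these fits after the data were seen. On simulated counts, changes of 1 on the log2 scale were recovered for 87 of 100 genes in neutrophils (9883 genes), 85 of 100 in macrophages (9373 genes), 83 of 100 between resting cell types (10384 genes) and 40 of 100 for the difference of effects (10445 genes). Fits used limma 3.58.1, DESeq2 1.42.0 and edgeR 4.0.16 under R 4.3.3. Figures were drawn with matplotlib 3.10.9, and promoters and annotation were read with pandas 2.3.3 (Python 3.11.15).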

Additional observations from a re-analysis of the deposited data

Results flagged for a closer look

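Gadd45g was picked out because every neutrophil library with CGRP lay above the PBS libraries and every macrophage library below them, a difference in log2 fold change (macrophages minus neutrophils) of −1.77, beside 1.06 for Btg1 and 1.16 for Btg2. These 3 values are a description, since the CGRP values were known when the genes were chosen, and no test of them is used.

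Of the 117 list genes tested, 14 had (beside 2.36% of all genes) an adjusted p under 0.05 for the interaction term (cell type by CGRP) in limma-voom, and the lists were chosen with earlier results known. The effect was more positive in macrophages for the p53 targets Sesn2 (1.68), Pmaip1 (1.47) and Xpc (1.30), for Trp53inp2 (0.95) and for Irs2 (1.73), an insulin receptor substrate with 12, 8 and 16 counts in PBS-treated macrophages. It was more negative for the p53 targets Plk2 (−2.48), Sesn1 (−1.58) and Rap2b (−1.33), for the cyclins Ccnd1 (−2.40), Ccne2 (−1.61) and Ccna2 (−1.33), and for the replication genes Pcna (−1.02) and Rrm2 (−1.02). The fitted difference of Ddit4, 2.66, rests on 2, 6 and 1 counts in PBS-treated macrophages and is not read as a size or a bound. Sesn1, Xpc, Rap2b, Trp53inp2, Ccnd1, Ccna2 and Plk2 passed in all 12 fits that left out a library, Sesn2 in 11, Ddit4 and Ccne2 in 8, and Rrm2, Irs2, Pmaip1 and Pcna in 2, 3, 3 and 4. Over the 7 other alternatives, Irs2 passed in 4, Pmaip1 in 5, Plk2, Ddit4, Ccne2, Pcna and Rrm2 in 6, and the remaining 7 genes in all. Plk2 and Ccnd1 had at most 28 counts in any neutrophil library.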

How the results depend on the processing

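In a single fit over all 12 libraries, 137 genes were called in neutrophils in place of 248, with 1 member in place of 2, and 1050 in macrophages in place of 698. Leaving out each library in turn gave between 138 and 234 called genes in neutrophils (lowest without PBS replicate 1 and without PBS replicate 2) with 1 to 3 members, between 347 and 765 in macrophages (lowest without PBS replicate 1) with 4 to 6 members, between 6889 and 7559 for the resting comparison with 8 members each time, and between 149 and 328 for the difference of effects (lowest without macrophage PBS replicate 1) with 3 to 5 members. No called member changed sign. Gadd45a in neutrophils, at 0.00 and never called, was −0.0065 without a filter and −0.0083 in the fit over 12 libraries, and ran from −0.14 to 0.23 with a library left out. Btg1, Btg2, Cdkn1a and Cdkn1b in macrophages and Gadd45g in neutrophils were called in all 8 alternatives and in all 6 fits without a library. Btg1 in neutrophils was not called in the single fit over 12 libraries, and Cdkn1a in neutrophils was called in 3 of 8 alternatives (library totals, at least 10 counts in every library, and the replicate block). Gadd45b in macrophages was called in the fit over 12 libraries alone, and the difference of effects of Cdkn1a with DESeq2, without macrophage PBS replicate 3 and without macrophage CGRP replicate 1. The difference of Mdm2 was called without macrophage PBS replicate 3. Same-numbered libraries had correlated deviations of −0.01 to 0.13 (neutrophils) and −0.18 to 0.27 (macrophages), not all over 0.1, so that the numbers were not taken as pairs, although these values do not settle it. With the replicate block, 254, 905, 7369 and 288 genes were called in the 4 comparisons, with 3, 5, 8 and 3 members, the added one being Cdkn1a in neutrophils (log2 fold change 0.37). Low counts limit Gadd45a, Trp53inp1, Ddit4 and Irs2 in macrophages.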
